A study of Mus musculus with 4 samples.

Results

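The HoxA cluster and Evx1 lie side by side on mouse chromosome 6. The genes described here were Hoxa3, Hoxa4, Hoxa5, Hoxa6, Hoxa7, Hoxa9, Hoxa10, Hoxa11, Hoxa13 and Evx1, which are 10 of the 49997 genes in the annotation table used. They were followed through the binding sites of CTCF and of the cohesin subunit RAD21 around them. A site was taken when a peak summit lay in a 600 kb window of chromosome 6 (mm10, from base 51900001), and peaks of different lists that overlapped were counted as 1 site. The window held 47 sites. Of the 36589 CTCF peaks in the DelCBS7-10 list, 17 lay in the window, against 11 of 34499 in the InsCBS5-10 CTCF list and 15 of 47931 in the wild-type CTCF list. Of the 19610 RAD21 peaks in the InsCBS5-10 list, 5 lay there, against 41 of 59484 in the RAD21 list named wild type.

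Gastruloids are cultured balls of mouse embryonic stem cells that elongate along a head-to-tail axis, and they were pooled for fixation at 96 h after aggregation. Binding was mapped by ChIPmentation, chromatin immunoprecipitation in which the transposase Tn5 adds the sequencing adapters on the beads. DelCBS7-10 stands for the HoxB genotype Del/Del(i9-13) with Ins(CBS5-10) and a further Del(CBS7-10), and CTCF was mapped in it. InsCBS5-10 stands for Del/Del(i9-13) with Ins(CBS5-10) alone, and both CTCF and RAD21 were mapped in it. In both mutants 1 copy of the HoxB cluster is deleted and the other copy lacks the interval between Hoxb9 and Hoxb13 and carries an inserted group of CTCF binding sites, of which DelCBS7-10 has lost sites 7 to 10. The wild type, in which CTCF was mapped, has none of these changes. All the labelled changes are in HoxB, on chromosome 11, so HoxA had the same labelled genotype in each group. There was 1 library per group, and the labels do not say how many clones or aggregations stand behind a genotype. The RAD21 list named wild type is a list of the whole series that has no labelled sample. Its genotype and its stage of 96 h come from the name of the list alone, and the series is described in part as a reanalysis of other data.

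Hox genes encode homeodomain transcription factors that give cells their position along the body axis, and within a cluster they are switched on in the order in which they lie on the chromosome. In HoxA this order runs along the coordinates of mm10 while the genes are read on the minus strand, so that Hoxa3 and Hoxa4, which act in the head and neck, have lower coordinates than Hoxa13, which acts at the tail end, in the digits and in the hindgut. Evx1, a homeobox gene of the even-skipped family, lies beyond Hoxa13 and is read on the plus strand. CTCF is a zinc-finger protein that binds DNA and halts the cohesin ring as it extrudes a chromatin loop. Sites where CTCF holds cohesin are known as loop anchors and as boundaries between active and repressed parts of Hox clusters. RAD21 is the subunit that closes the cohesin ring, so that its peaks show where cohesin stays.

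Sequence could be read at gene starts, from 250 bases before to 50 bases after each transcription start (RefSeq, GRCm38.p6). Such windows were found for 9 of the 10 genes, with 2 starts for Hoxa10. The 3 windows shown belong to Hoxa5, where all 5 lists had a summit, and to Hoxa10 and Hoxa11, each touched at an edge by 1 list. These were the RAD21 list named wild type at Hoxa10 (94 bp) and DelCBS7-10 CTCF at Hoxa11 (22 bp). The Evx1 window, not shown, held a summit of the RAD21 list named wild type. All 3 windows shown are read on the minus strand, 5′ to 3′. Their positions are chr6:52204538-52204837 (Hoxa5), chr6:52240805-52241104 (the first start of Hoxa10) and chr6:52245761-52246060 (Hoxa11). In Hoxa10 and Hoxa11 the capitals mark a match to 1 of 4 forms of the CTCF core motif, searched on both strands. In Hoxa5 they mark GGGTGGC, which is none of these forms and was chosen after the sequence had been seen.
Hoxa5: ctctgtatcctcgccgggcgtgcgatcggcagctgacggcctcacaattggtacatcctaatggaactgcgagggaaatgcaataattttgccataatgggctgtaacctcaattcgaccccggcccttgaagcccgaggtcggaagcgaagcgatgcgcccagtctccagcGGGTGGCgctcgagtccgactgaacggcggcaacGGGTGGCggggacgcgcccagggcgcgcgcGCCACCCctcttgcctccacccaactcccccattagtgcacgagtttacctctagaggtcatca
Hoxa10: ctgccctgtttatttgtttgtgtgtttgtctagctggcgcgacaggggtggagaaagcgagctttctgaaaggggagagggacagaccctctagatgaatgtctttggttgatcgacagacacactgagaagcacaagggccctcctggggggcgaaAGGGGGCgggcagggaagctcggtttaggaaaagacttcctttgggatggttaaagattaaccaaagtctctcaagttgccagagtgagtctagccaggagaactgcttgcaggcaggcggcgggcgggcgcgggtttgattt
Hoxa11: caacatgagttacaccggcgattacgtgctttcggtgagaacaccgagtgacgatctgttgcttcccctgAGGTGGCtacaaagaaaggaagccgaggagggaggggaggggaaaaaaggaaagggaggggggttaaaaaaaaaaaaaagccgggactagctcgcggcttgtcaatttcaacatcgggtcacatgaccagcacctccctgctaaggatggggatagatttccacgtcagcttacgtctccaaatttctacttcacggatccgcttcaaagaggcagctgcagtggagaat
AGGGGGC was found in 10.6% of the 32851 promoter windows of the table, AGGTGGC in 6.15%, AGATGGC in 6.40% and AGAGGGC in 8.32%. At least 1 of these 4 stands in 27.6% of them, and the marked matches do not overlap each other. Hoxa10 holds AGGGGGC at -93 from its start and Hoxa11 holds AGGTGGC at -180. Hoxa5 holds none of the 4. GGGTGGC was found in it at -78, at -44 and, on the other strand, at -14. GGGTGGC stands in 6.55% of all promoter windows, at least 2 times in 0.353% and at least 3 times in 0.0304%, or 10 windows. Because it was picked from Hoxa5, where it recurs, these shares do not measure how unusual Hoxa5 is. Hoxa7 holds it once, at 30 bases past its start. The windows of Hoxa3, Hoxa6, Hoxa9, Hoxa13, Evx1 and the second start of Hoxa10 hold none of the 5. A match describes the letters only, and sequence at the sites between genes was not analysed here.

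The lists differ in their level as well as in length. Values are the authors' fold enrichment, the summit's signal divided by the background of the same library, a ratio, and its percentile, the share of the peaks of that list with a lower fold enrichment. The median fold enrichment over a whole list was 5.30 in DelCBS7-10, 5.56 in InsCBS5-10 and 5.60 in wild-type CTCF. Strong CTCF peaks differed more in level. The highest of 10 equal bins by fold enrichment began at 8.26 in DelCBS7-10, 8.86 in InsCBS5-10 and 11.4 in wild type. For RAD21 the median was 6.17 in InsCBS5-10 and 4.21 in the list named wild type. That last list stands apart, with wider peaks (median 480 bp, against 301 to 321 bp in the others) and with 62.0% of its peaks at a −log10 q of 5 or more, against 71.9% to 79.3%. Numbers of reads are unknown, so a site without a call is not shown to be unbound. With 1 library per group there is no replicate error, and no difference between lists could be tested.

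**Figure D1:**
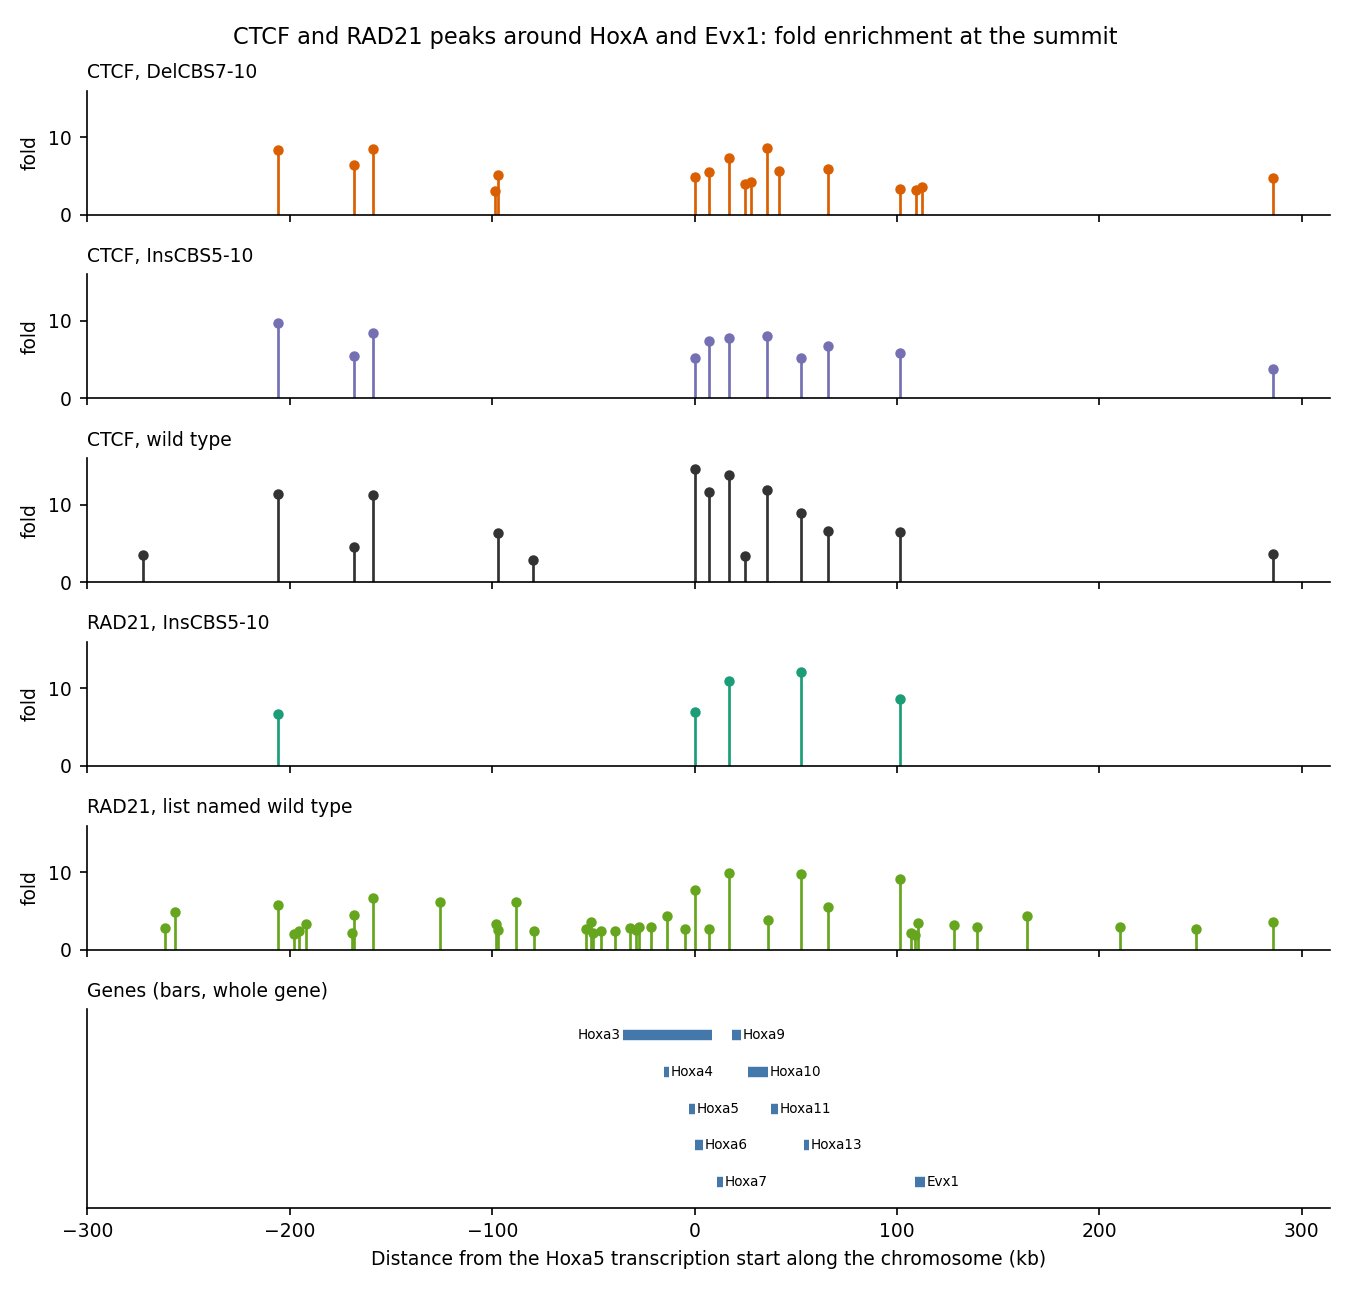
Fold enrichment at the summit (vertical axes, 0 to 16) of each peak in the window, by distance from the Hoxa5 start along the chromosome in kb, with 1 row per list and the 10 genes as bars below. No CTCF list has a peak in the 79.7 kb before the Hoxa5 peak, while the stretch from Hoxa5 to Evx1 has a row of them.

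The CTCF sites of the cluster formed a row that began at the Hoxa5 promoter and ended near Evx1. Between the outer ends of Hoxa3 and Evx1, a span of 149.331 kb, there were 21 sites. CTCF was called at 12 of them in at least 1 list and at 6 of them in all 3 CTCF lists. All 3 of these lists and both RAD21 lists had a peak at 3 sites, which were the Hoxa5 promoter, a site between Hoxa7 and Hoxa9 and a site between Hoxa13 and Evx1. The span held 11 CTCF peaks in DelCBS7-10, 7 in InsCBS5-10 and 8 in wild type. In wild type the median gap between neighbouring CTCF peaks of the span was 10.9 kb, against 23.2 kb over the genome. Cutting the genome into tiles of the length of the span gave a median of 1 CTCF peak per tile in DelCBS7-10, 1 in InsCBS5-10 and 2 in wild type. As many CTCF peaks as in the span were found in 0.913% of tiles in DelCBS7-10, in 5.26% in InsCBS5-10 and in 6.63% in wild type.

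Hoxa3, which is needed for the thymus and parathyroid, and Hoxa4 made up the part of the cluster without CTCF. None of the 3 CTCF lists had a peak between base 52169059, the far end of Hoxa3, and the Hoxa5 promoter. In wild type the nearest CTCF summit before the Hoxa5 promoter was 79.7 kb away, and gaps larger than this are 17.6% of all wild-type gaps. Hoxa3 itself is long in the annotation, 44009 bp, and its start at base 52213067 lies past Hoxa5 and Hoxa6, so that the CTCF peaks at the Hoxa5 promoter and beyond Hoxa6 fall inside its bar. The RAD21 list named wild type had 6 peaks in this part of the cluster, and these sites had no peak in any other list. The highest of them lay in Hoxa4 (52190672 to 52191215), with a fold enrichment of 4.38, which is the 52.6 percentile of that list. The others had 2.52 to 2.96, at percentiles of 3.88 to 17.0. Ranked by −log10 q, the Hoxa4 peak was at a percentile of 73.7 and the others at 43.1 to 55.0.

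The Hoxa5 promoter carried the first CTCF site of the row, and it was the site of the cluster where the 3 CTCF lists lay furthest apart. Hoxa5 patterns the neck and upper trunk and is needed in the developing lung. The fold enrichment was 4.80 in DelCBS7-10 and 5.14 in InsCBS5-10, against 14.54 in wild type. These are percentiles of 39.8 in DelCBS7-10, 42.6 in InsCBS5-10 and 97.7 in wild type, where 1090 peaks of the list had a higher value. By fold enrichment both mutant libraries had this site below the middle of their lists, while in wild type it was the highest CTCF peak of the window. The −log10 q was 9.97 in DelCBS7-10, 9.83 in InsCBS5-10 and 96.0 in wild type. Ranked by −log10 q the site was near the middle of the mutant lists, at percentiles of 54.5 in DelCBS7-10 and 49.1 in InsCBS5-10, against 97.4 in wild type.

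RAD21 at the Hoxa5 promoter was called in both lists. Its fold enrichment was 6.96 in InsCBS5-10 (percentile 61.2) and 7.64 in the list named wild type (percentile 84.1). All 5 summits fell within the printed promoter window, at base 52204568 in DelCBS7-10, 52204716 in InsCBS5-10 and 52204633 in wild type for CTCF, and at 52204621 in InsCBS5-10 and 52204567 in the list named wild type for RAD21. Hoxa5 starts at base 52204587. From the middle of the GGGTGGC at -44 (bases 52204625 to 52204631), in the direction of the coordinates, the CTCF summits lay at -60 bp in DelCBS7-10, 88 bp in InsCBS5-10 and 5 bp in wild type, and the RAD21 summits at -7 bp in InsCBS5-10 and -61 bp in the list named wild type. From the match at -78 the CTCF summits lay at -94, 54 and -29 bp in DelCBS7-10, InsCBS5-10 and wild type. With 3 matches so close together, the distances single out none of them.

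Lists of different lengths give percentiles that are not on 1 scale, so CTCF ranks were also taken over the 27596 peaks called in all 3 CTCF lists, a choice made after the percentiles had been seen. Among these the Hoxa5 promoter ranked above 25.1% of the peaks in DelCBS7-10, 30.3% in InsCBS5-10 and 96.2% in wild type. The difference in rank was -71.1 points for DelCBS7-10 minus wild type, and 0.308% of the shared peaks had a lower one. It was -65.9 points for InsCBS5-10 minus wild type, with 0.522% lower. Both differences use the same wild-type library. With −log10 q in place of fold enrichment they were -54.9 points for DelCBS7-10 (1.41% of shared peaks lower) and -58.7 points for InsCBS5-10 (0.986% lower). Among the 819 shared peaks with a wild-type summit in a promoter window they were -61.1 points for DelCBS7-10 (1.71% lower) and -53.2 points for InsCBS5-10 (3.3% lower). The median difference over all shared peaks was 0.0797 points for DelCBS7-10 and 0.263 points for InsCBS5-10. The site was singled out as the one where the lists lay furthest apart. Falls this large can occur only at peaks ranked high in wild type, and no set of like wild-type rank was taken. The shares of shared peaks given here therefore do not measure how unusual the site is. Rank differences given below for other sites are bounded by their ranks in the same way.

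**Figure D2:**
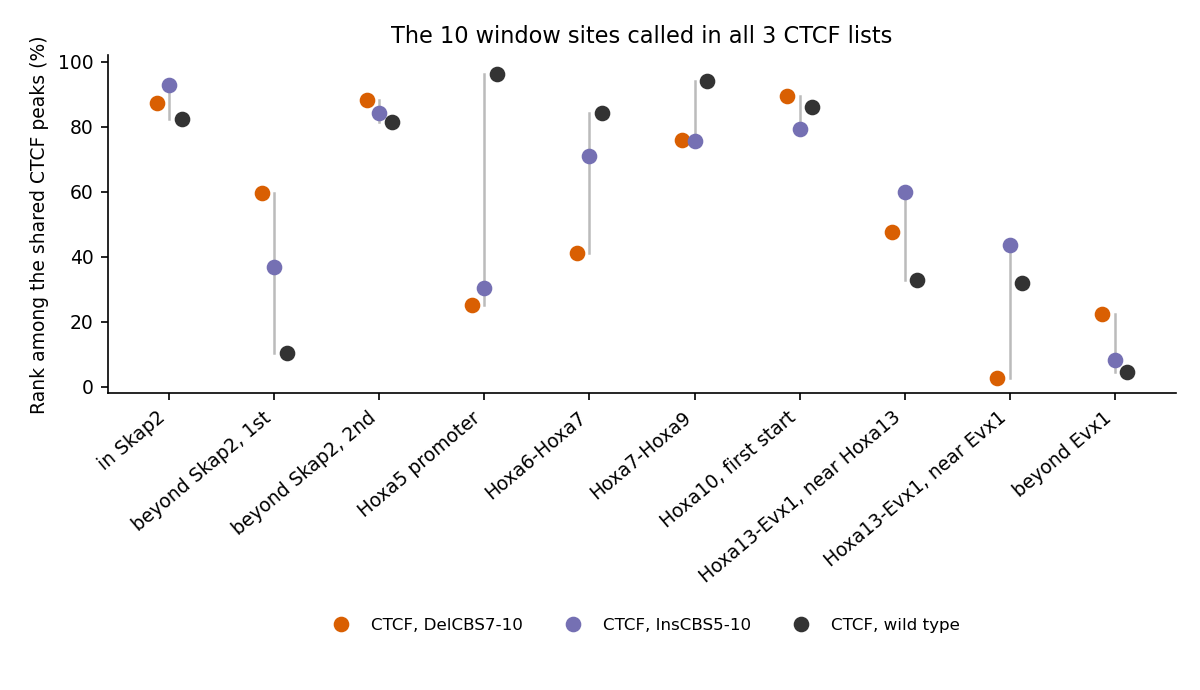
Rank of fold enrichment (vertical axis, percent) among the CTCF peaks called in all 3 lists, for the 10 window sites called in all 3, in order along the chromosome; points are libraries and grey lines join the lowest and highest. At the Hoxa5 promoter the mutants are at 25.1% (DelCBS7-10) and 30.3% (InsCBS5-10) and wild type is at 96.2%, while at the first start of Hoxa10 all 3 lie between 79.3% and 89.4%.

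The next CTCF site lay beyond Hoxa6 (52211324 to 52211997), between Hoxa6 and Hoxa7, which both pattern the trunk. Its CTCF fold enrichment was 5.54 in DelCBS7-10, 7.37 in InsCBS5-10 and 11.61 in wild type, at percentiles of 54.2 in DelCBS7-10, 76.6 in InsCBS5-10 and 90.7 in wild type. DelCBS7-10 was lowest and wild type highest, with InsCBS5-10 between them. Cohesin had at most a weak call here. InsCBS5-10 RAD21 had no peak, and the RAD21 list named wild type had a fold enrichment of 2.72, in the lowest 8.7% of its list. The shared rank was 41.3% in DelCBS7-10, 70.9% in InsCBS5-10 and 84.2% in wild type.

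The site between Hoxa7 and Hoxa9 (52221332 to 52222409) was high in all 5 lists. Hoxa9 acts in the trunk and in blood stem cells. CTCF fold enrichment was 7.34 in DelCBS7-10, 7.73 in InsCBS5-10 and 13.79 in wild type, at percentiles of 81.8 in DelCBS7-10, 80.5 in InsCBS5-10 and 96.6 in wild type. RAD21 fold enrichment was 10.93 in InsCBS5-10 (percentile 93.3) and 9.88 in the list named wild type (percentile 94.8). By fold enrichment it was the only site of the window above the 80 percentile in every list. Ranked by −log10 q, its CTCF percentiles were 77.7 in DelCBS7-10, 73.8 in InsCBS5-10 and 95.4 in wild type. RAD21 and CTCF summits were 2 bp apart in InsCBS5-10, and 28 bp apart between the 2 lists of wild-type name.

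Around Hoxa10 and Hoxa11, which act in the limb and in the reproductive tract, the DelCBS7-10 library had more CTCF calls than the others. The site at the first start of Hoxa10 (52240218 to 52240898) had a CTCF fold enrichment of 8.57 in DelCBS7-10, 8.00 in InsCBS5-10 and 11.92 in wild type, at percentiles of 92.0 in DelCBS7-10, 83.4 in InsCBS5-10 and 91.9 in wild type. It was the highest CTCF peak of the window in DelCBS7-10. InsCBS5-10 RAD21 was not called there, and the RAD21 list named wild type had 3.85 (percentile 42.2). The CTCF summits lay 298 to 333 bp past the Hoxa10 start, inside the gene, while the AGGGGGC of the printed window lies on the other side of the start.

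Further calls in this part were weaker or came from 1 library. A site between Hoxa9 and Hoxa10 (52229511 to 52229744) had 3.88 in DelCBS7-10 and 3.38 in wild type, and no call in InsCBS5-10. A site inside Hoxa10 (52232123 to 52233102) was called in DelCBS7-10 alone, at 4.26 (percentile 29.5). A site beyond the start of Hoxa11 (52246039 to 52246645) was also called in DelCBS7-10 alone, at 5.62 (percentile 55.9, −log10 q 12.3), above the middle of that list. Its summit lay at -709 bp from the Hoxa11 start, and the peak overlapped the printed Hoxa11 window by 22 bp. None of these 3 sites had a RAD21 call.

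The site between Hoxa11 and Hoxa13 (52256335 to 52257618) combined the highest InsCBS5-10 RAD21 signal of the cluster with a CTCF call that DelCBS7-10 lacked. RAD21 fold enrichment was 12.10 in InsCBS5-10 (percentile 96.7), where 640 of the 19610 peaks were higher, and 9.78 in the list named wild type (percentile 94.4). CTCF had no call in DelCBS7-10, 5.14 in InsCBS5-10 (percentile 42.8) and 8.88 in wild type (percentile 76.3). The RAD21 percentile exceeded the CTCF percentile by 54.0 points in InsCBS5-10, and 1.9% of the 16619 CTCF peaks with a RAD21 peak in that genotype had a larger difference. In the lists of wild-type name the difference was 18.1 points, with 26.2% of 32909 larger.

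Of the InsCBS5-10 CTCF peaks of similar fold enrichment (the same one of 10 equal bins of that list), 91.0% were found in DelCBS7-10. Of similar peaks that also had wild-type CTCF and both RAD21 calls, 121 of 1619 (7.47%) were missing from DelCBS7-10. With an InsCBS5-10 RAD21 percentile at or above that of the Hoxa11 to Hoxa13 site, 6 of 610 InsCBS5-10 CTCF peaks (0.984%) were missing. These 610 peaks were not matched for CTCF fold enrichment. A missing call thus occurs elsewhere in the list too. It was rare among these 610 peaks, but the share found in DelCBS7-10 also rose with CTCF fold enrichment. In the highest of the 10 bins it was 99.9%. The part of RAD21 in this was not tested. No RAD21 library of DelCBS7-10 was analysed here. For Hoxa13, the nearest CTCF summit lay 3778 bp past its start in InsCBS5-10 and 3745 bp past it in wild type, both on the Hoxa11 side. In DelCBS7-10 the nearest one was on the Evx1 side, at -9818 bp.

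Between Hoxa13 and Evx1 there were 2 CTCF sites. The site nearer Hoxa13 (52270357 to 52271024) had similar CTCF values in all 3 lists, at 5.82 in DelCBS7-10, 6.72 in InsCBS5-10 and 6.55 in wild type, or percentiles of 59.4 in DelCBS7-10, 67.8 in InsCBS5-10 and 58.6 in wild type. It had no InsCBS5-10 RAD21 call and 5.51 in the RAD21 list named wild type (percentile 67.5). The site nearer Evx1 (52305370 to 52306483) had 3.23 in DelCBS7-10, 5.83 in InsCBS5-10 and 6.49 in wild type. In DelCBS7-10 this was close to the weakest calls, at a percentile of 8.9 and a −log10 q of 1.78, against percentiles of 54.2 in InsCBS5-10 and 58.1 in wild type. The shared rank was 2.80% in DelCBS7-10, 43.5% in InsCBS5-10 and 32% in wild type, and 4.36% of the shared peaks had a lower DelCBS7-10 minus InsCBS5-10 difference than its -40.7 points. RAD21 was high at this site, at 8.68 in InsCBS5-10 (percentile 79.4) and 9.06 in the list named wild type (percentile 91.6).

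Evx1 itself had calls from single lists only. DelCBS7-10 CTCF alone had 2 peaks inside the gene, with fold enrichments of 3.13 and 3.53 and −log10 q of 1.97 and 2.57. The RAD21 list named wild type alone had 3 peaks at or beside the gene, at 2.19, 1.93 and 3.45, of which the second had its summit at -11 bp from the Evx1 start. The third, inside the gene, had a −log10 q of 10.7, above 60.2% of that list, while its fold enrichment was above 32% of it. Beyond Evx1 the CTCF row stopped. The next wild-type CTCF summit after the site near Evx1 was 184 kb away, and 5.73% of all wild-type gaps are larger.

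**Figure D3:**
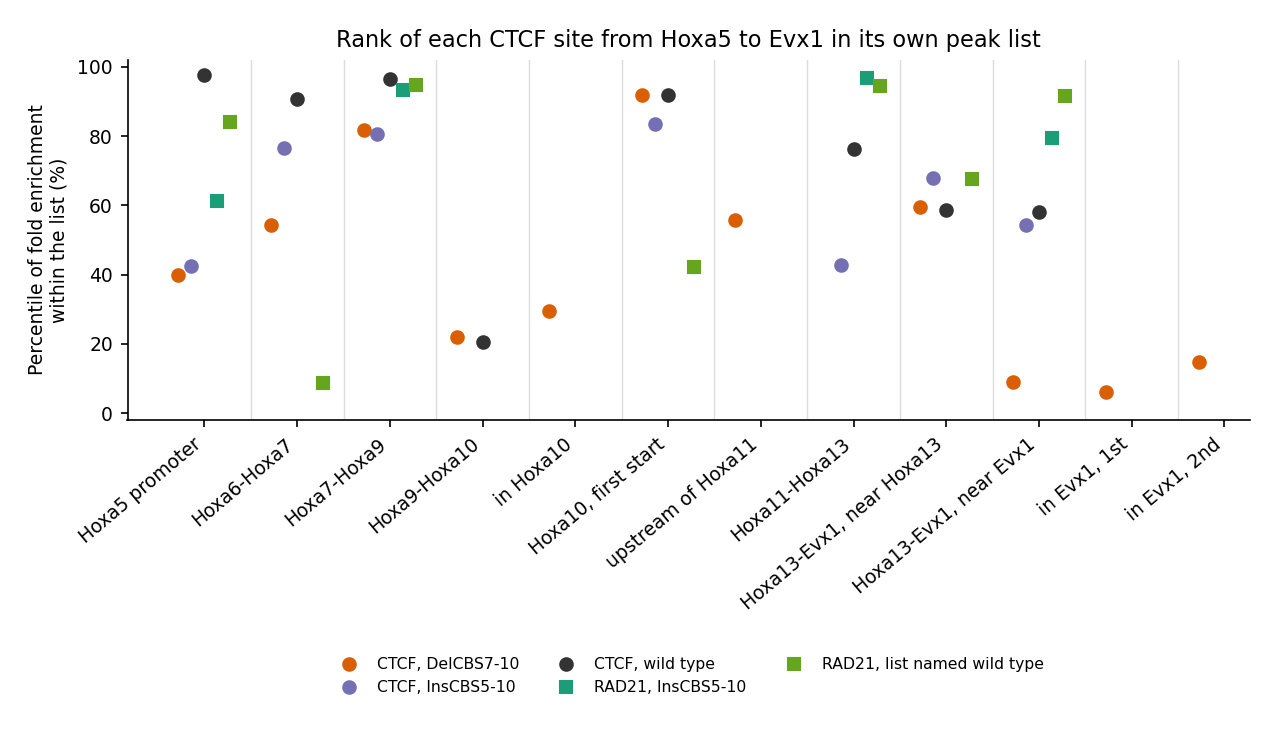
Percentile of fold enrichment within its own list (vertical axis, percent) at the 12 sites from Hoxa5 to Evx1 with a CTCF call, in order along the chromosome; circles are CTCF lists and squares RAD21 lists, and a missing point is a site not called. The site between Hoxa7 and Hoxa9 lies above 80 in every list, and the site between Hoxa11 and Hoxa13 has RAD21 at 96.7 (InsCBS5-10) and 94.4 (list named wild type) with no point for DelCBS7-10.

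Gene by gene, a CTCF summit lay in or within 5 kb of 8 of the 10 genes in each CTCF list. The share of all 20278 protein-coding genes outside chromosome 11 with such a summit was 57.3% in DelCBS7-10, 54.8% in InsCBS5-10 and 63.6% in wild type. The genes without one were Hoxa4 and Hoxa13 in DelCBS7-10, and Hoxa4 and Evx1 in both InsCBS5-10 and wild type. For RAD21 it was 6 of the 10 genes in InsCBS5-10, against 38.1% of all such genes, and all 10 in the list named wild type, against 75.3%. In InsCBS5-10 the genes without RAD21 were Hoxa4, Hoxa10, Hoxa11 and Evx1. Neighbouring genes share peaks here, so these are not independent counts.

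Of the 15 wild-type CTCF peaks of the window, 12 were found in DelCBS7-10, against 65.8% of all wild-type CTCF peaks, and 11 were found in InsCBS5-10, against 63.2%. Of the 11 InsCBS5-10 CTCF peaks, 10 were found in DelCBS7-10, against 82.5% of that list, and all 11 in wild type, against 87.7%. The exact 95% intervals of the window's shares, which cover counting error only, contain these background shares. Of the 17 DelCBS7-10 window peaks, 12 were found in wild type (70.6%, exact 95% interval 44.0% to 89.7%), against 86% of that list. In InsCBS5-10, 10 of them were found (58.8%, interval 32.9% to 81.6%), against 77.7%. These intervals contain the background too. Averaged over the fold enrichment bins of the window's peaks, the shares of the list were 83.0% for wild type and 74.1% for InsCBS5-10. The 5 CTCF sites that DelCBS7-10 alone called were those in Hoxa10, beyond Hoxa11 and in Evx1, and 1 outside the gene span. Wild type alone called 2, both outside the gene span, at percentiles of 23.4 and 8.74, and InsCBS5-10 alone called none.

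**Figure D4:**
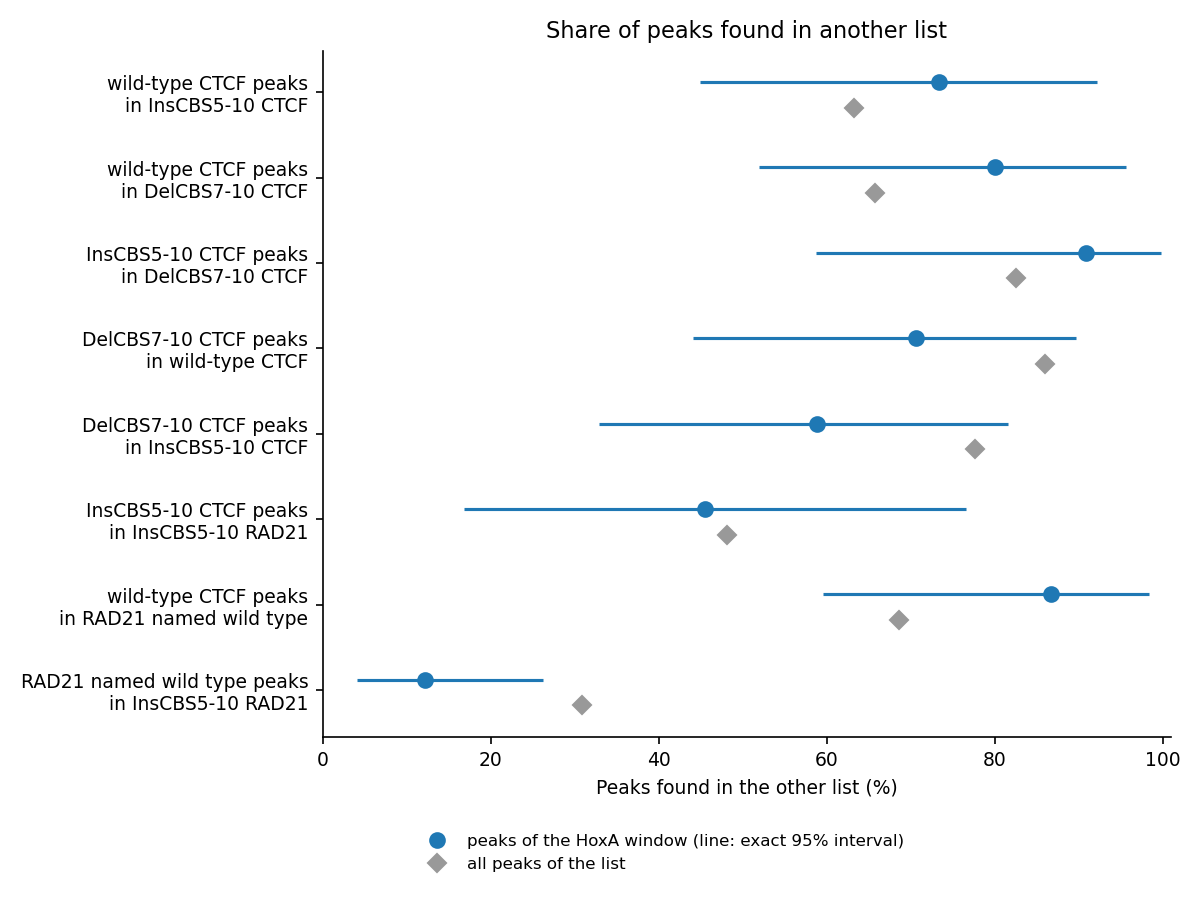
Share of peaks of a list found in another list (horizontal axis, percent; overlap of at least 1 bp), for the peaks of the window (circles, with exact 95% binomial intervals) and for all peaks of the list (diamonds). Of the comparisons plotted, the window's interval leaves out the share of the whole list in the lowest. There, 12.2% of the window's peaks in the RAD21 list named wild type were found in InsCBS5-10 RAD21, against 30.9% of the whole list. Averaged over the fold enrichment bins of the window's peaks, that share of the list is 19%, which lies inside the interval.

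The RAD21 peaks of the window were few in InsCBS5-10 and many in the list named wild type. All 5 InsCBS5-10 RAD21 peaks of the window overlapped an InsCBS5-10 CTCF peak, against 84.8% of that RAD21 list, and all 5 overlapped a peak of the RAD21 list named wild type, against 94.5%. In the other direction, 5 of the 11 InsCBS5-10 CTCF peaks had RAD21, against 48.2% of the list. These InsCBS5-10 shares lie near those of the whole lists. Of the 15 wild-type CTCF peaks, 13 had a peak in the RAD21 list named wild type, against 68.7%. That RAD21 list had 41 peaks in the window, of which 5 were found in InsCBS5-10 RAD21 (12.2%, exact 95% interval 4.08% to 26.2%), against 30.9% of the list, and 13 at a wild-type CTCF peak (31.7%, interval 18.1% to 48.1%), against 54.6%. The median percentile of these 41 peaks was 17.5 by fold enrichment and 46.5 by −log10 q, so that they were low in their list on the first scale and near its middle on the second. With the list split into 10 equal bins by fold enrichment, shares were also averaged over the bins of the window's peaks. These were 19% for InsCBS5-10 RAD21 and 39.9% for wild-type CTCF, and both lie inside the intervals above. At 27 of the 47 window sites the RAD21 list named wild type had the only peak.

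RAD21 and CTCF did not rank the sites of the cluster alike. In InsCBS5-10 the RAD21 percentile was above the CTCF percentile at all 4 sites of the gene span with both. The differences were 18.5 points at the Hoxa5 promoter, 12.7 between Hoxa7 and Hoxa9, 54.0 between Hoxa11 and Hoxa13 and 25.2 near Evx1. Of the 16619 CTCF peaks with RAD21 there, 18.3%, 23.7%, 1.9% and 13.4% had larger ones, in the same order. At the Skap2 site, outside the span, the difference was -36.5 points. In the lists of wild-type name the 4 sites of the span went both ways. Their differences were -13.6 points at the Hoxa5 promoter, -1.78 between Hoxa7 and Hoxa9, 18.1 between Hoxa11 and Hoxa13 and 33.6 near Evx1. Larger ones were found at 79.4%, 62.6%, 26.2% and 10.1% of 32909 peaks. The lists differ in length, so percentiles are not on a common scale, and these differences do not compare the genotypes. How often RAD21 ranks above CTCF over all shared peaks was not counted. In the lists of wild-type name the lowest differences of the gene span were -82.1 points beyond Hoxa6 and -49.7 points at the Hoxa10 start. Of the 32909 wild-type CTCF peaks with RAD21, 99.9% had a larger difference than the site beyond Hoxa6 and 97.9% a larger one than the Hoxa10 start. These were also sites where InsCBS5-10 had CTCF and no RAD21 call. At 18376 RAD21 peaks shared by the RAD21 lists, the 4 sites ranked higher in InsCBS5-10 than in the list named wild type by 4.65 points (near Evx1) to 14.4 points (between Hoxa11 and Hoxa13), and 59.0% to 74.7% of shared peaks had lower differences, so none of them lay near an end of the range.

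Outside the gene span, 4 further window sites were called in all 3 CTCF lists. A site in Skap2 (51998026 to 51999055), which encodes a signalling adaptor, had 8.32 in DelCBS7-10, 9.73 in InsCBS5-10 and 11.35 in wild type, and it was the only one of the 4 with an InsCBS5-10 RAD21 peak, at 6.72, against 5.72 in the list named wild type. It was the highest CTCF peak of the window in InsCBS5-10. Of the 2 sites between Skap2 and the cluster, the one nearer Skap2 had 6.39 in DelCBS7-10, 5.47 in InsCBS5-10 and 4.48 in wild type. Its shared rank ran opposite to that of the Hoxa5 promoter, at 59.6% in DelCBS7-10, 36.7% in InsCBS5-10 and 10.5% in wild type, and 97.2% of shared peaks had a lower DelCBS7-10 minus wild-type difference than its 49.1 points. The one nearer the cluster had 8.41 in DelCBS7-10, 8.48 in InsCBS5-10 and 11.22 in wild type. Beyond Evx1, the last site of the window had 4.66 in DelCBS7-10, 3.81 in InsCBS5-10 and 3.68 in wild type.

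The HoxD and HoxC clusters, counted in the same way from their outermost genes, gave a scale for HoxA. HoxA had 6 sites with CTCF in all 3 lists in 149.331 kb, against 5 in 112.154 kb of HoxD and 3 in 115.726 kb of HoxC. Per 100 kb HoxA had 7.37 CTCF peaks in DelCBS7-10, 4.69 in InsCBS5-10 and 5.36 in wild type. HoxD had 8.02 in DelCBS7-10, 4.46 in InsCBS5-10 and 8.02 in wild type, and HoxC had 9.51 in DelCBS7-10, 6.05 in InsCBS5-10 and 3.46 in wild type. All 3 clusters had 3 sites with CTCF in all 3 lists together with RAD21 in InsCBS5-10. With 1 library per group these counts have no error beyond counting, and the clusters were not tested against each other.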

How the data were processed

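CTCF and RAD21 were mapped in pooled mouse gastruloids at 96 h by ChIPmentation, with 1 library for each of 4 labelled samples, and a further RAD21 list with no labelled sample was used under the name it carries. Per the submitters' processing notes, the authors used cutadapt 4.1, MACS2 2.2.7.1 and mm10, and the peak names show 2 versions of chromosome 11. The sources used here do not give the aligner, the control, the mapping filters or the number of reads. Each deposited peak carries the authors' score (10 times the −log10 q), fold enrichment (a ratio within the library) and −log10 p and q, and the lists reach down to a q of 0.05. Lists were made per library.

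Lines with the same interval were merged to the strongest summit, on chromosomes 1 to 19, X and Y, without the chromosome 11 version lacking HoxB. Overlap of at least 1 bp counted as found, with exact (Clopper-Pearson) 95% intervals that cover counting error only. Gene positions and promoter sequences came from RefSeq (GRCm38.p6, whose chromosome coordinates are those of mm10), where Hoxa4 has no promoter entry. Python 3.11.15, numpy 2.4.6, pandas 2.3.3, scipy 1.17.1 and matplotlib 3.10.9 were used, and the merging and overlap steps were tested on simulated lists. All sites of the window were kept, and those of the gene span were named one by one. No test between groups was possible with 1 library each. Stricter q, overlap, ranking and span settings were tried as alternatives. The genes and lists were chosen with earlier results of these data known.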

Additional observations from a re-analysis of the deposited data

How the results depend on the processing

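Under the alternatives, 45 values stayed within the limits set for each and 16 moved beyond them. At a −log10 q of 5 or more the window held 31 sites, against 47. When an overlap of 50% of both peaks was asked for, 8 of 15 wild-type CTCF peaks had a peak in the RAD21 list named wild type, against 13, and 1 of its 41 peaks was found in InsCBS5-10 RAD21, against 5, where the peaks of that list are wider. In the gene span alone there were 21 sites, with 6 in all 3 CTCF lists, against 10 in the window. Of its 8 wild-type CTCF peaks, 7 were found in DelCBS7-10 (87.5%, against 80.0% in the window), 7 in InsCBS5-10 (87.5%, against 73.3%) and 7 in the RAD21 list named wild type (87.5%, against 86.7%), and of its 7 InsCBS5-10 CTCF peaks 6 were found in DelCBS7-10 (85.7%, against 90.9%). Without the RAD21 list named wild type the window held 20 sites and the gene span 12. Ranked by −log10 q, the median percentile of that list's window peaks was 46.5, against 17.5. The rank differences at the Hoxa5 promoter, under alternatives chosen after seeing the data, were -54.9 and -61.1 points for DelCBS7-10 minus wild type and -58.7 and -53.2 points for InsCBS5-10 minus wild type. The cause of these moves was not tested, beyond the settings that take fewer peaks. No paired analysis was possible because there is 1 library per group and the labels give no replicate numbers. No replicate could be left out. Depth is unknown, and calls near the q threshold are limited by it.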
